A study of Mus musculus with 2 samples.

Results

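The genes described here are 36 that carry out or control the synthesis of cholesterol and fatty acids. They were chosen by name, and all 36 were found among the 18724 rows of the deposited table of mouse prostate luminal cells. The table holds 2 libraries. One is from luminal cells that were GFP-positive after sorting and are called label-retaining, and the other is from GFP-negative, non-retaining luminal cells. Both were freshly sorted from the prostate of mice of 18 weeks, and no strain, treatment or castration is given for either. By the title of the study the label is GFP fused to histone 2B, which is diluted at each division and so lasts longest in cells that divide rarely. The sources used here do not state the promoter that drives the label, the sorting antigens or how many mice were pooled.

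Cells make cholesterol from acetyl-CoA through mevalonate, isoprenoids and squalene, and make fatty acids from the same precursor through malonyl-CoA. Membrane-bound SREBP transcription factors control both branches: when sterols are scarce the escort protein Scap carries them to the Golgi, where they are cut free, and Insig proteins hold Scap back when sterols are plentiful. In the prostate, androgens are known to raise many of these genes in luminal cells, and lipid is needed for the membranes of a secretory epithelium.

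Each group is a single library, so nothing was tested and no spread between replicates is known. Every ratio compares these libraries, not the conditions, and every interval is a 95% counting interval that covers counting error only. The label-retaining library had 50689229 recovered reads and the other 48334265, and every one of the 36 genes passed the minimum mean of 10 normalised counts. A gene is counted as higher or lower when the libraries were at least 2-fold apart and the interval excluded equality. By that rule 5 of the 36 genes were higher and 6 lower in the label-retaining library. That is 30.6% of them, and 33.8% of all 17183 measured genes passed the same rule (14.5% higher and 19.4% lower). The share of the 36 genes past 2-fold was thus near the background, and so was their median log2 ratio, at -0.07 against -0.01 for all measured genes. Of the 36 ratios, 17 were above equality and 19 below, beside 49.8% above and 50.2% below among all measured genes. The values that follow describe single genes and are no result about the 36 as a set.

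The sorts also differed in RNA of other cell types. Basal epithelial markers were lower in the label-retaining library in 11 of 11 genes and held 0.107% of its reads against 1.07% of the non-retaining reads (Krt5 962 against 28725 reads, Krt14 2124 against 55571). All 8 smooth muscle markers were lower (0.00376% against 0.0549%), as were 9 of 12 leukocyte markers (0.0183% against 0.0534%, with Gzma at 0 reads in the label-retaining library), 5 of 7 endothelial (0.00134% against 0.00556%) and 4 of 4 red cell markers (0.000866% against 0.0213%). The most abundant leukocyte marker, Cd52, was higher (6818 against 2160 reads), and the other 11 held 0.00489% against 0.0489%. Of 7 fibroblast markers 2 were higher and 2 lower, and 5 were above equality (median log2 ratio 0.94). Their sum was lower (0.0341% against 0.209%) through Dcn (4930 against 92262 reads), and without Dcn it was 0.0244% against 0.0184%. All 5 seminal vesicle markers were higher (0.166% against 0.00174%, with Svs6 at 0 reads in the non-retaining library). The luminal markers had 4 higher and 0 lower of 11 (1.78% against 1.07%), and the luminal keratins Krt8 and Krt18 were abundant in both libraries. Of 11 adipocyte markers, 3 were among the rows of the table: Fabp4 (55 against 210 reads) and Plin4 (60 against 707) were lower and Lpl (963 against 255) was higher. The part of these cells in the results below was not tested. In sorted bulk RNA, fewer cells of a type and less RNA per cell cannot be told apart.

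The promoters of 4 genes are shown because they differ in side: Hmgcs1 was lower, Mvd and Acsl3 were higher, and Fasn was past 2-fold in neither direction. Each is the 250 bases before the RefSeq start on GRCm38.p6, 5′ to 3′ on the strand of the gene, at chr13:119690101-119690350 (plus strand), chr8:122443423-122443672 (minus), chr1:78657575-78657824 (plus) and chr11:120824548-120824797 (minus). Capitals mark CCAAT, the box bound by NF-Y, and TCACNCCAC, the core of a sterol regulatory element, on either strand.
Hmgcs1: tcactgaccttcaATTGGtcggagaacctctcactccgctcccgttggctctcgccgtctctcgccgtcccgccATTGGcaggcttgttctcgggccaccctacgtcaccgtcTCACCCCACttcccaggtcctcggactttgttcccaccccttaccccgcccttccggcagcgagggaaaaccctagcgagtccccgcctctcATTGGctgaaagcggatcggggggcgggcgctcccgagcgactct
Mvd: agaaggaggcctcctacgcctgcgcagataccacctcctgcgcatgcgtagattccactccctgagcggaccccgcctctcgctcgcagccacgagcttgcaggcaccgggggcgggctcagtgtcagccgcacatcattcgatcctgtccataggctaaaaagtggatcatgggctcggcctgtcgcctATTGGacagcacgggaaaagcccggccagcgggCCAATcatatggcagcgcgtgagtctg
Acsl3: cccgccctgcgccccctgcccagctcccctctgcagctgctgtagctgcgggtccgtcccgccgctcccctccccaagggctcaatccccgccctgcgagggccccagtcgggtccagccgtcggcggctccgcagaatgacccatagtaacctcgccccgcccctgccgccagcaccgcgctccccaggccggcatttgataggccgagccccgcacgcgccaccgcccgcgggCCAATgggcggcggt
Fasn: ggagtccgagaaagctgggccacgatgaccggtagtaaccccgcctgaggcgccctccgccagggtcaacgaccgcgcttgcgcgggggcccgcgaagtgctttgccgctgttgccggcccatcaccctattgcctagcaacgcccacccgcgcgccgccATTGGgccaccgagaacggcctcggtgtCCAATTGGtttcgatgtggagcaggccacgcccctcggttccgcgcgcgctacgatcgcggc

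A RefSeq promoter, from 250 bases before to 50 after the start, was found for 29 of the 36 genes. CCAAT occurred in a promoter of 23 of the 29 (79.3%), against 41.1% of 27025 genes with a promoter. All 5 of the higher genes had the box, as did 2 of the 4 lower genes with a promoter (Hmgcs1 and Idi1, but not Fads2 or Elovl6). A gene with several RefSeq starts was counted when any of its promoters had the box. Before its starts, Me1 had the box at chr9:86687278-86687527 but not at chr9:86695915-86696164, which spans the annotated start of the gene. Dhcr7 had it at chr7:143829964-143830213 but not before its other starts. TCACNCCAC occurred in 1 of the 29, Hmgcs1, where it began 137 bases before the start, and in 1.44% of all genes. No match of TCACNCCAC overlapped CCAAT, while in Fasn 2 CCAAT matches on opposite strands overlap. A match is a description of the letters only.

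The enzymes from acetyl-CoA to squalene had 2 of 7 ratios above equality and 5 below, and 1 of the 5 (Fdps) had an interval that held equality. Hmgcs1, the synthase that makes HMG-CoA (ENSMUSG00000093930.1, chromosome 13, 119690379 to 119708260, plus strand, mm10), had 2124 label-retaining and 8367 non-retaining reads. It was 3.59-fold lower, at a log2 ratio of -1.84 (-1.91 to -1.78). Idi1, the isomerase of isopentenyl diphosphate (chromosome 13, 8885501 to 8892451, plus strand), had 751 against 2680 reads and stood at -1.70 (-1.82 to -1.58). Of the stretches of 50 bases in the Idi1 transcript, 21.3% also occurred in transcripts of other annotated genes. The 3 enzymes between these steps, Mvk, Pmvk and Mvd, stood on both sides of equality. Mvd, the decarboxylase just before Idi1 (chromosome 8, 122433601 to 122443422, minus strand), had 546 against 275 reads and was higher at 1.12 (0.91 to 1.34).

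Among the remaining early enzymes none reached 2-fold. Mevalonate kinase, Mvk, was at 0.53 (512 against 390 reads), and the next kinase, Pmvk, was at -0.59 (638 against 1053). Fdft1, the squalene synthase, was at -0.20 (2830 against 3572 reads), and 18.3% of its exon length overlaps Ctsb on the opposite strand. The library kit keeps strand, but whether the counting used it is not stated. Fdps, which makes farnesyl diphosphate, had only 61 and 69 reads, the lowest level per length of all 36 genes, and its log2 ratio of -0.04 had an interval that held equality (-0.57 to 0.47). Of the 50-base stretches of its transcript, 86.4% also occurred in transcripts of other annotated genes, and the sources used here do not say how such shared reads were counted. The level and ratio of Fdps are therefore uncertain.

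The enzymes from squalene to cholesterol had 5 of 9 ratios above equality and 4 below. Dhcr7, the last reductase of one route to cholesterol (chromosome 7, 143823145 to 143848410, plus strand), had 416 against 199 reads and was 2.29-fold higher, at 1.20 (0.95 to 1.45). Tm7sf2, the sterol C14 reductase (chromosome 19, 6062821 to 6068373, minus strand), overlaps Vps51 on the same strand over 12.1% of its exon length. It had 417 against 227 reads and was at 1.01 (0.77 to 1.25), just past the threshold. Just inside it on the other side lay Cyp51, the lanosterol demethylase whose product Tm7sf2 reduces, with 2021 against 4223 reads and a log2 ratio of -0.93 (-1.01 to -0.85). These consecutive steps thus stood on opposite sides of equality.

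The other late enzymes lay within 2-fold. Above equality were Nsdhl, a C4 decarboxylating dehydrogenase, at 0.86 (482 against 291 reads), the sterol isomerase Ebp at 0.69 (1292 against 876), and Lss, which closes the sterol rings, at 0.61 (1611 against 1161). Below it were the C4 oxidase Msmo1 at -0.55 (2318 against 3712 reads), the squalene epoxidase Sqle at -0.42 (1738 against 2557) and the desaturase Sc5d at -0.20 (1464 against 1843). Msmo1 and Nsdhl act on the same carbon of the sterol, and their intervals (-0.62 to -0.47 and 0.65 to 1.08) did not overlap.

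Across the 16 sterol enzymes, those above equality were mostly the less abundant ones. Counted per kilobase of merged exons and averaged over the libraries, the 7 genes above equality ranged from 51.2 to 452 normalised counts (median 131). The 8 below equality other than Fdps ranged from 322 to 1059 (median 464). The GC content of the transcripts differed too, with medians of 52.8% above and 46.2% below equality (Fdps included). Over all measured genes the median log2 ratio ranged from -0.09 to 0.06 across 10 bins of GC content. The part of GC content in the sides of these enzymes was not tested. This grouping by side was made after the values were seen and used the ratios themselves.

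**Figure D1:**
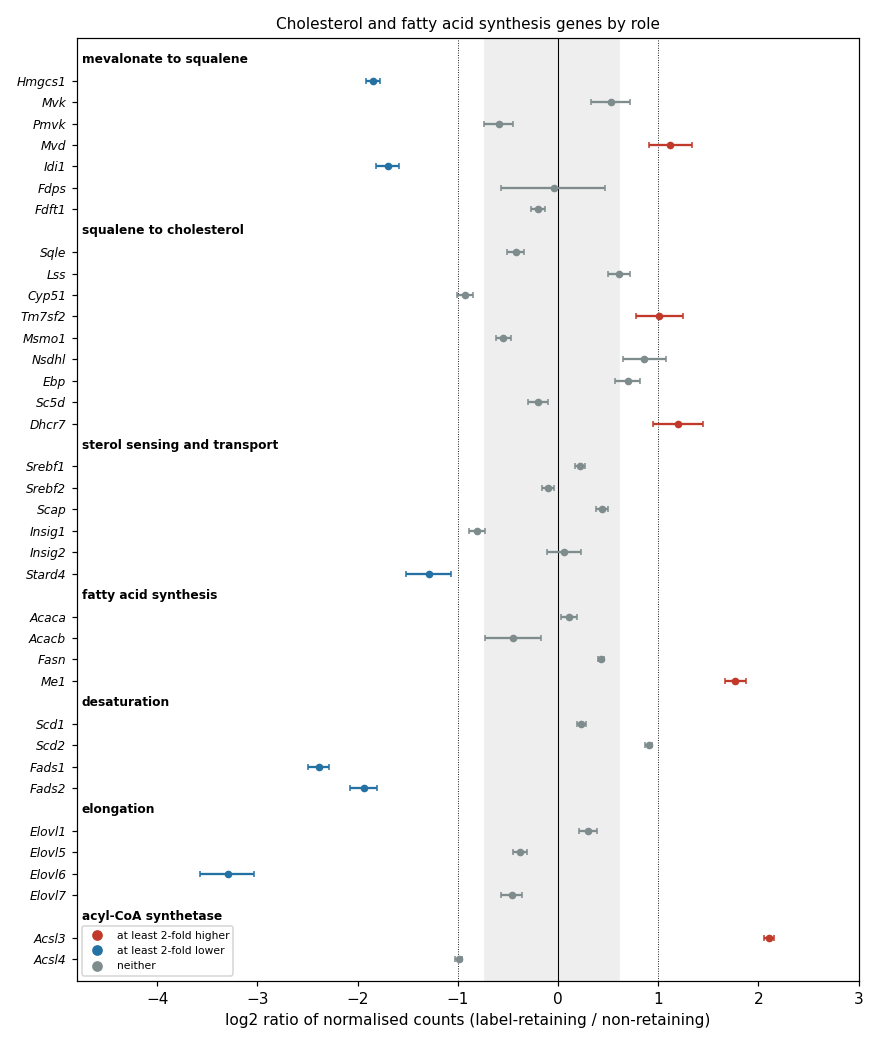
Log2 ratio of normalised counts (x axis, label-retaining over non-retaining) of the 36 genes, grouped by role, with 95% counting intervals, the 2-fold lines (dotted) and the interquartile range of all measured genes (grey band). Within the sterol branch Mvd (1.12) and Idi1 (-1.70) stand on opposite sides although they catalyse consecutive steps.

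Of the 6 genes of sterol sensing and transport, 5 lay within 2-fold and 1 was lower. Srebf1 and Srebf2, which encode the SREBP factors, had 6320 against 5962 and 3712 against 4367 reads and were at 0.22 (0.17 to 0.27) and -0.10 (-0.16 to -0.04). Scap, which encodes their escort, was at 0.44 (4894 against 3968 reads). Insig1, a retention factor and itself a well-known SREBP target, had 2031 against 3907 reads and was at -0.81 (-0.89 to -0.73). Its paralog Insig2 was at 0.06 (546 against 575 reads), with an interval that held equality. Stard4, a cytosolic sterol carrier, was the 1 lower member, with 221 against 592 reads and a log2 ratio of -1.29 (-1.52 to -1.06).

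The synthase and the carboxylases of fatty acid synthesis lay within 2-fold, and of these Fasn had by far the highest level per length (1683 against 1250 normalised counts per kilobase). Fasn, the fatty acid synthase (chromosome 11, 120805846 to 120824547, minus strand), had 18459 against 15039 reads, a log2 ratio of 0.43 (0.40 to 0.46). Acaca, the cytosolic acetyl-CoA carboxylase that supplies it with malonyl-CoA, was at 0.11 (2311 against 2349 reads), although 52.6% of its 50-base stretches also occur in another annotated gene. Acacb, the mitochondrial form linked to control of fatty acid oxidation, was scarce, with 178 against 266 reads (-0.44, -0.73 to -0.17).

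Me1, the malic enzyme that supplies NADPH to the synthase, stood apart from these. It had 2916 against 937 reads and was 3.41-fold higher in the label-retaining library (chromosome 9, 86581371 to 86695953, minus strand), at 1.77 (1.66 to 1.88). Only 5.74% of all measured genes had a higher ratio. Of its 50-base stretches 26.5% also occur in other annotated genes.

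Of the 4 desaturase genes 2 were above equality and 2 were lower. Scd1 and Scd2, which place the first double bond into saturated fatty acids, were above equality. Scd2 (chromosome 19, 44293674 to 44306864, plus strand) had 23579 against 13829 reads (0.90, 0.87 to 0.93), the highest level per length of the 36 genes in the label-retaining library, and Scd1 had 8873 against 8291 (0.23, 0.19 to 0.27). Fads1 and Fads2, the front-end desaturases that make polyunsaturated fatty acids, were both lower. Fads1 (chromosome 19, 10182888 to 10196877, plus strand) had 812 against 4666 reads and was 5.24-fold lower, at -2.39 (-2.50 to -2.28). Its neighbour Fads2 (chromosome 19, 10062765 to 10101746, minus strand) had 572 against 2406 reads and was at -1.94 (-2.07 to -1.81).

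Elovl6 had the lowest ratio of all 36 genes. This elongase of saturated and monounsaturated chains (ENSMUSG00000041220.9, chromosome 3, 129532355 to 129638495, plus strand) had 124 label-retaining and 1336 non-retaining reads. It was 9.79-fold lower, at -3.29 (-3.57 to -3.03), and 4.27% of all measured genes had a lower ratio. The other elongases lay near equality: Elovl1, which acts on very long chains, at 0.30 (2138 against 1910 reads), Elovl5, which acts on polyunsaturated chains, at -0.38 (3014 against 4306), and Elovl7 at -0.46 (1241 against 1874). In level per kilobase, Elovl6 went from rank 25 of the 36 genes in the non-retaining to rank 34 in the label-retaining library.

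The acyl-CoA synthetases, which activate fatty acids for use, gave the highest ratio and one of the lowest among abundant genes. Acsl3, an enzyme of the endoplasmic reticulum and lipid droplets that androgens raise in prostate cells (ENSMUSG00000032883.14, chromosome 1, 78657825 to 78707743, plus strand), had 16911 against 4314 reads. It was 4.30-fold higher, at 2.10 (2.06 to 2.15), and 3.75% of all measured genes had a higher ratio. Of the Acsl3 exon length, 5.6% overlaps Utp14b on the same strand. Acsl4, which prefers arachidonic acid (chromosome X, 142317993 to 142390535, minus strand), had 8219 against 17932 reads and was at -0.99 (-1.03 to -0.95), just short of 2-fold. Acsl4 was the gene with the highest level per length of the 36 in the non-retaining library (3018 normalised counts per kilobase) and had rank 5 in the label-retaining one (1517). Acsl3 went from 901 to 3873 normalised counts per kilobase, from rank 9 to rank 2.

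**Figure D2:**
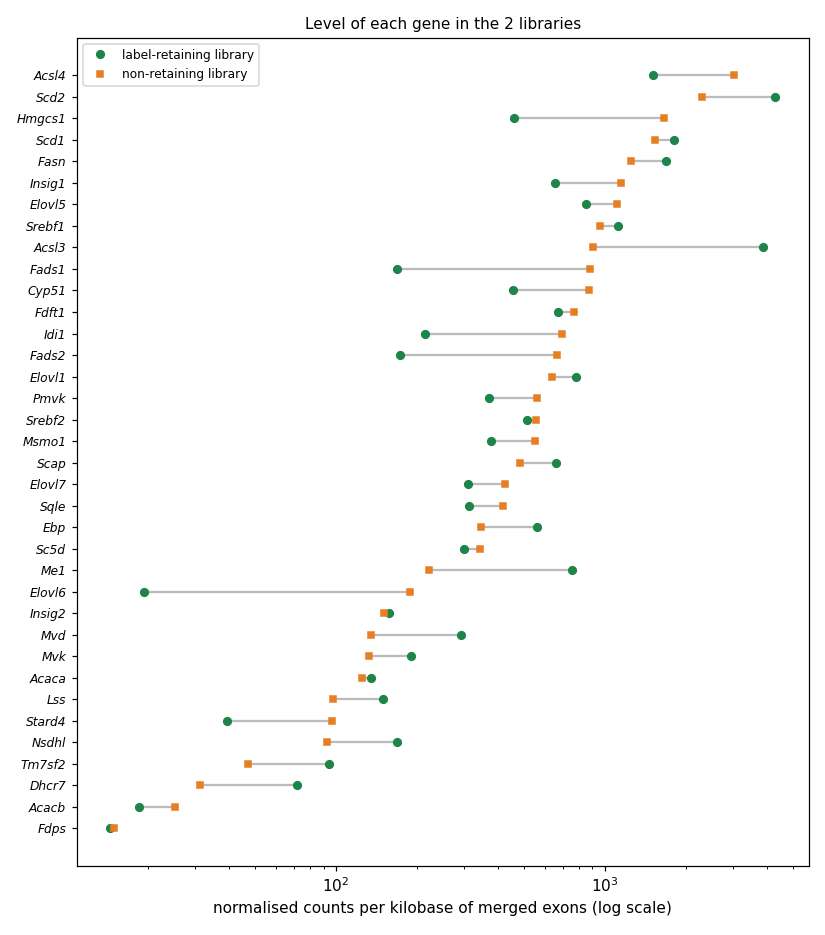
Normalised counts per kilobase of merged exons (x axis, log scale) of each of the 36 genes in the label-retaining (circles) and non-retaining (squares) library, ordered by the non-retaining level. Acsl3 (3873 against 901) and Elovl6 (19.2 against 189) have the longest lines upward and downward.

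Reads divided between related genes do not depend on the scaling between libraries, so 8 pairs of paralogs or related enzymes were compared as the first gene's share of the reads of both. Acsl3 held 67.3% (66.7 to 67.9) of the Acsl3 and Acsl4 reads in the label-retaining library and 19.4% (18.9 to 19.9) in the non-retaining one, so the more abundant member changed. The log2 ratios of the genes differed by 3.10 (3.03 to 3.16). Elovl5 held 96.0% (95.3 to 96.7) of the reads it shared with Elovl6 against 76.3% (75.2 to 77.4), a difference of 2.91 (2.64 to 3.20).

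The balance moved less in the other pairs, and every interval of the difference excluded 0. Insig1 held 78.8% of the Insig reads against 87.2%, a difference of -0.87 (-1.06 to -0.68). Elovl1 held 63.3% of the reads of Elovl1 and Elovl7 against 50.5% (0.76, 0.62 to 0.90), and Scd1 held 27.3% of the reads of Scd1 and Scd2 against 37.5% (-0.67, -0.72 to -0.62). The differences were 0.56 for Acaca over Acacb (0.26 to 0.85), -0.45 for Fads1 over Fads2 (-0.62 to -0.28) and 0.32 for Srebf1 over Srebf2 (0.24 to 0.40). No spread between replicates is known for these shares.

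**Figure D3:**
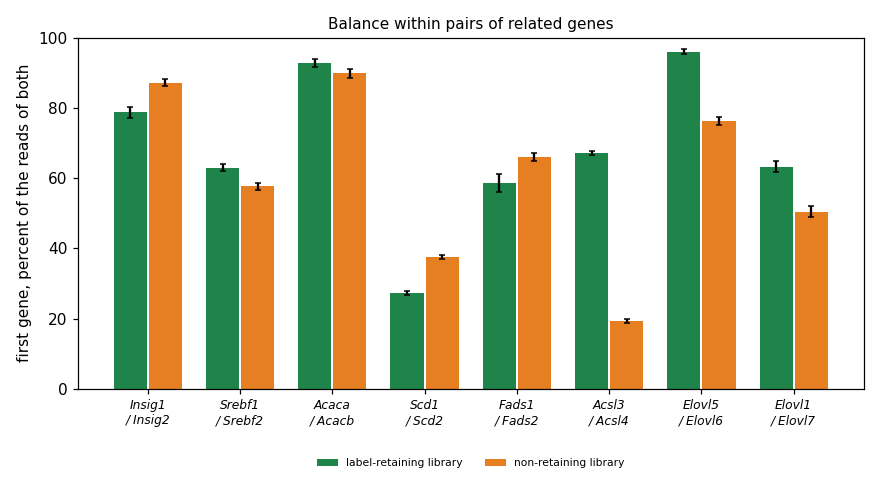
Share of the first gene in the reads of both genes of each pair (y axis, percent), in the label-retaining and the non-retaining library, with exact binomial 95% intervals as error bars. The share of Acsl3 is 67.3% against 19.4%, and the share of Elovl5 is 96.0% against 76.3%.

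In sum of reads the 36 genes held 0.249% (0.248 to 0.251) of the label-retaining and 0.270% (0.268 to 0.271) of the non-retaining library. The order reverses when the 20 most abundant genes of either library are left out of the total: the totals drop to 34527319 and 39826751 reads, and the shares are then 0.366% and 0.327%.

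The rest of the pathway was read from 7 further lists, in which 12 of 96 measured genes were higher (12.5%) and 9 lower (9.38%). That is 21.9% together, beside 33.8% of all measured genes (14.5% higher and 19.4% lower), and the difference was not tested. Among 10 other genes of sterol synthesis and uptake, 1 was higher and 3 lower, with a median log2 ratio of -0.52. One of the lower ones was Hsd17b7, a sterol C3 reductase, at -1.54 (182 against 581 reads). The higher one was Dhdds, of dolichol synthesis, at 1.17 (3234 against 1576 reads), and the most abundant, Cyb5r3, was at -0.34.

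Genes that supply carbon and NADPH lay above equality in 10 of 11, with a median of 0.47, and 3 of the 11 intervals held equality. These sides are those of the deposited scaling. Scaling to each library's total moved the median of all measured genes by -0.20, and Cs (0.12), Mcat (0.08) and Oxsm (0.01) lay closer to equality than that. Scaling by Krt8 and Krt18 reads moved it by -0.78, and of the 11 only G6pdx and Idh1 lay farther above equality. Of the 11, 2 were higher (18.2%) and 0 lower, beside 14.5% and 19.4% of all measured genes. G6pdx, which opens the pentose phosphate pathway, was at 1.48 (5477 against 2152 reads), and Idh1, the cytosolic isocitrate dehydrogenase, at 1.44 (3566 against 1438). Both produce NADPH, as does Me1. Pgd, of the same list and named outside the rule, lay within 2-fold at 0.60 (3233 against 2338 reads). Acly, which makes cytosolic acetyl-CoA and is named outside the rule, was near equality (6754 against 7412 reads).

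Other elongation and acyl-CoA genes gave 2 higher and 2 lower of 14 measured (14.3% each, beside 14.5% and 19.4% of all measured genes). Scd3, a further stearoyl-CoA desaturase gene, had 824 against 98 reads (3.20, 2.90 to 3.52), although 6.66% of its 50-base stretches also occur in other genes. Acsl1 was at 1.59 (6531 against 2376 reads), whereas Fads3 was at -1.39 (217 against 623), below equality like Fads1 and Fads2, and Elovl4 at -1.09 (25 against 59). Among 15 measured SREBP and LXR regulators only the deubiquitinase gene Usp20 was past 2-fold, at 1.69 (2196 against 744 reads). That is 6.67% of this list, beside 33.8% of all measured genes. The most abundant regulator, Mbtps1, which cuts SREBP in the Golgi, was at 0.49.

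Genes of sterol export, storage and lysosomal handling had 4 higher and 1 lower of 14 (28.6% and 7.14%). Among all measured genes 14.5% were higher and 19.4% lower, and differences from these shares were not tested. The sterol exporter Abcg1 had 54 against 557 reads (-3.22, -3.66 to -2.83). The higher ones were Gramd1b, a sterol carrier at membrane contacts (1.78), the oxysterol-binding Osbpl2 (1.44), the ester hydrolase Nceh1 (1.42) and the most abundant, Osbp (1.21). Glycerolipid genes had 1 higher and 2 lower of 14 (7.14% and 14.3%). Dgat1, which makes triglyceride, was at -2.45 (446 against 2672 reads), the droplet coat Plin2 at -1.20 (237 against 598) and Lpin2 at 1.58 (9095 against 3327). Fatty acid oxidation had 1 higher and 1 lower of 18 (5.56% each). The lower one was Etfdh, of electron transfer to the respiratory chain, at -1.09 (1668 against 3907 reads).

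**Figure D4:**
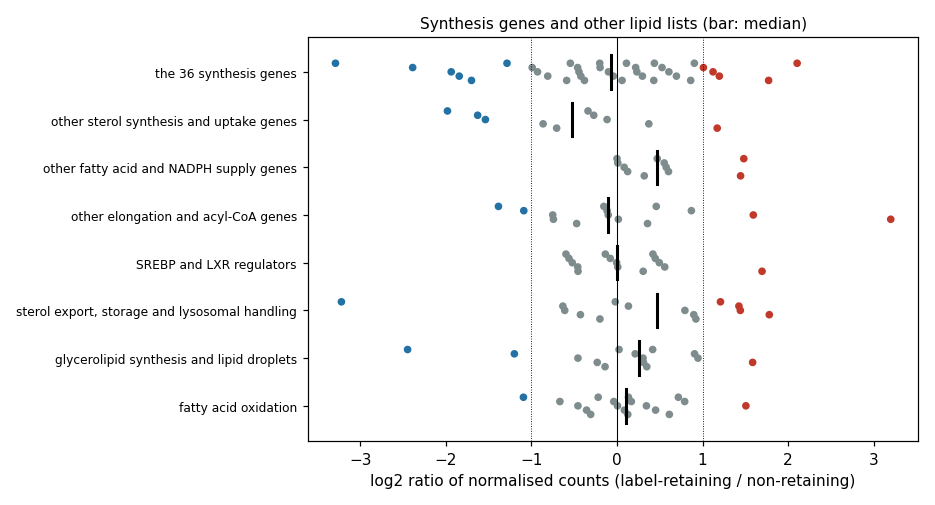
Log2 ratio of normalised counts (x axis) of the 36 synthesis genes and of the measured genes of 7 other lipid lists, with each list's median as a bar, the 2-fold lines dotted, and genes past 2-fold in red (higher) or blue (lower). The other sterol genes have a median of -0.52 and the carbon and NADPH supply genes one of 0.47.

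The size of each ratio depends on how the libraries are scaled, because the most abundant genes took a larger part of the label-retaining reads. The median of all measured genes moved by -0.20 in counts scaled to each library's total (CPM) and by -0.78 when the reads of Krt8 and Krt18, keratins of luminal cells, set the scale. Under the CPM scaling 2 of the 36 genes were higher and 9 lower, while 11.1% of all measured genes were higher and 23.3% lower. Mvd, Tm7sf2 and Dhcr7 then fell short of 2-fold, and Cyp51, Insig1 and Acsl4 passed it on the lower side. Under the keratin scaling 1 was higher and 15 lower, against 5.23% and 41.3% of all measured genes (46.5% together). At a 1.5-fold threshold with the deposited scaling 9 were higher and 10 lower, while 24.2% of all measured genes were higher and 26.8% lower (51% together). All 6 lower genes stayed lower under each of these scalings and under the other 2 tried, and Acsl3 stayed higher.

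Some genes within 2-fold changed side. The CPM scaling put Acaca and Insig2 below equality, and leaving out the 20 most abundant genes put Fdps above it. The keratin scaling left 7 of the 36 above equality: Mvd, Tm7sf2, Nsdhl, Dhcr7, Me1, Scd2 and Acsl3. Mvk, Lss, Ebp, Srebf1, Scap, Insig2, Acaca, Fasn, Scd1 and Elovl1 went below.

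**Figure D5:**
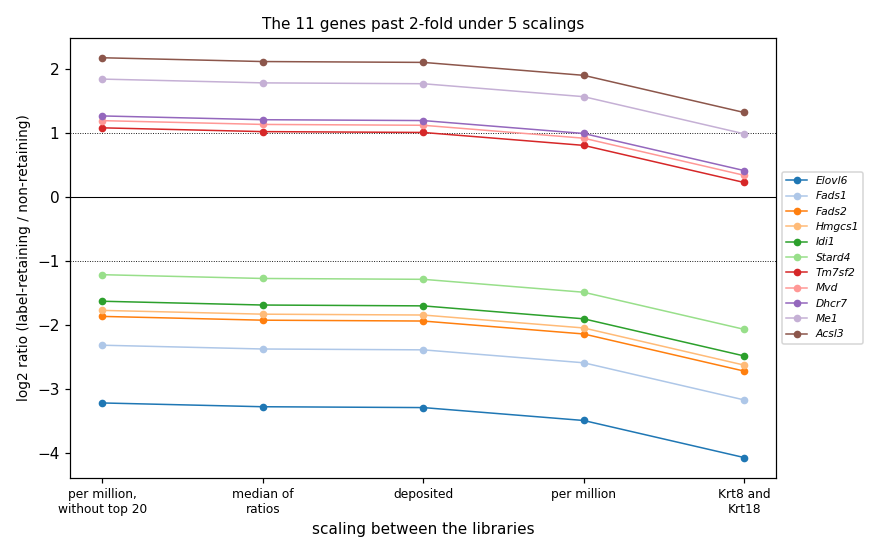
Log2 ratio (y axis) of the 11 genes past 2-fold under 5 ways of scaling the libraries (x axis), with 2-fold as dotted lines. The 6 lower genes stay below -1 throughout, while Mvd, Tm7sf2 and Dhcr7 drop below 1 under the CPM scaling.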

How the data were processed

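Total RNA of 1 label-retaining and 1 non-retaining library was analysed. The deposited values are a normalised signal: reads per gene, divided by the authors by a size factor for each column, as the values show. All values were whole multiples of 1 step per column (largest deviation 5.2e-10 and 2.3e-09 reads), which gave the reads. Per the submitters' processing notes the tools were DESeq 1.16.0, HTSeq 0.6.0, Bowtie2 2.1.0, TopHat2 2.0.10 and CASAVA 1.8.2, with the mm10 build, and no roles are given. The sources used here state neither annotation nor strand setting nor the treatment of shared reads.

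Symbols came from GENCODE M21 (18634 rows matched, 90 did not), as did positions, merged exon lengths and transcripts, on GRCm38. Promoters came from RefSeq. The log2 ratio used the deposited scaling and a pseudocount of 0.5. Its interval is the exact (Clopper-Pearson) 95% interval of the share of reads from 1 library, and pair differences used the exact conditional odds ratio. Genes with a mean of at least 10 normalised counts were measured (17183, leaving out 1541). The ratio calculation was tested on simulated counts. Alternatives were 4 other scalings, pseudocounts of 1 and 5, other filters and a 1.5-fold threshold. Python 3.11.15, numpy 2.4.6, pandas 2.3.3 and scipy 1.17.1 were used.

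The members and lists were chosen with earlier results of these data known. All 36 members are named. From each other list, up to 4 genes past 2-fold with the interval bound farthest from 0 are named, with the most abundant one; a few of these are not reported here. Centring by GC content was added after seeing the data.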

Additional observations from a re-analysis of the deposited data

How the results depend on the processing

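With the deposited scaling 5 of the 36 genes were higher and 6 lower, the median log2 ratio was -0.07, and 12 other lipid genes were higher and 9 lower. The CPM scaling gave 2 higher and a median of -0.27. The keratin scaling gave 1 higher and 15 lower with a median of -0.85. Among the other lipid genes it gave 1 higher and 31 lower, while 5.23% of all measured genes were higher and 41.3% lower. These shifts follow from the construction, since a scaling moves all ratios together. A 1.5-fold threshold gave 9 higher and 10 lower of the 36. Without Scd2, the most abundant member, the label-retaining share was 0.203% and the other 0.241%, and 0.366% and 0.327% (all members) without the 20 most abundant genes in the total. With either other pseudocount, or with median-of-ratios factors, all 36 ratios moved by less than their counting intervals. A pseudocount of 5 still left 4 higher and 6 lower, because Tm7sf2, at 0.99, missed 2-fold. Centring by GC content, chosen after seeing the data, moved 5 of the 36 ratios by more than their counting intervals. It also left 4 higher and 6 lower, and Tm7sf2 again missed 2-fold. The filters on low values kept the counts of higher and lower genes within 1.5 times. The median of the squalene-to-cholesterol enzymes turned from 0.61 to -0.18 under the keratin scaling. No gene past 2-fold changed side under any scaling, pseudocount or GC setting. No paired analysis was possible because each group has 1 library. Genes with few reads, such as Fdps with 61 and 69, are limited by depth.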
